A study of Mus musculus with 24 samples.

Results

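The genes described here are 10 genes of the red cell lineage, out of 35817 gene symbols in the series: the transcription factors Gata1 and Klf1, the alpha globins Hba-a1 and Hba-a2, the beta globins Hbb-bs and Hbb-bt, the heme enzyme Alas2, and the red cell proteins Slc4a1, Kel and Car1. They were picked on the libraries of CD4+ T cells taken after transplant, where they were higher in *Cat-Tg* than in WT libraries. That comparison, and each one that reuses its libraries, is therefore given as a description with no test for these genes. The estimated counts of all transcripts of a gene were added up and are given as TMM CPM, that is CPM with library totals adjusted by the TMM method. Levels between genes are compared only in TPM, which also divides by transcript length.

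Red cell precursors arise from progenitors under the control of GATA1, a zinc finger factor of erythroid, megakaryocytic, mast cell and eosinophil lineages, and KLF1, a factor largely restricted to the erythroid lineage that activates the adult beta globin gene. Globin and heme synthesis follow, and globin mRNA outlasts the nucleus and persists in reticulocytes, whereas mRNA of the early factors declines as the cells mature. In mice the spleen is a site of red cell production and its red pulp macrophages clear old red cells, while T cells do not make hemoglobin.

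The study asked how an activated β-catenin changes T cells in transplantation between strains. RNA was sequenced from sorted CD4+ and CD8+ spleen T cells of C57BL/6 background in 24 libraries, 8 groups of 3. *Cat-Tg* mice carry a transgene for a human β-catenin that lacks its N-terminal part, made in FVB and backcrossed to C57BL/6; WT mice have no transgene. The pre-tx libraries are spleen T cells of untransplanted mice. The post-tx libraries are donor T cells from the spleen at day 7, after irradiated BALB/c recipients were given WT bone marrow depleted of T cells and, in equal numbers, T cells of both types from *Cat-Tg* or WT donors. By the study's methods the donor T cells were sorted by H-2Kb, which the donor marrow cells also carry, and each transplant group had 3 recipients, from which both cell types were taken. The animals were matched for age and sex, and the labels give no age. The WT libraries and the *Cat-Tg* libraries have different name prefixes in the labels, so that genotype and library series cannot be told apart.

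The total estimated count of a library ranged from 11135713 to 50519825, so that 3 counts were worth between 0.0594 and 0.269 CPM. The 6 libraries labelled WT pre-tx went against their labels. Cd8a made up 57.4% ± 7.01 (SD, n = 3) of the summed Cd4 and Cd8a level in WT CD8 pre-tx and 60.9% ± 7.37 (SD, n = 3) in WT CD4 pre-tx. In *Cat-Tg* pre-tx the values were 99.7% ± 0.369 for CD8 and 2.39% ± 1.06 for CD4 (SD, n = 3). They also held 8 B cell genes at a summed 4828 to 7709 CPM, against 169 to 579 CPM in the *Cat-Tg* pre-tx libraries. Every comparison below that uses them carries this difference, and no comparison of genotypes before transplant exists without them. The post-tx libraries matched their labels, with Cd8a at 99.4% to 99.5% in the means of the CD8 groups and at 0.318% to 0.377% in those of the CD4 groups.

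Sequence upstream of the start of the transcript was at hand for 8 of the 10 genes, from RefSeq on GRCm38.p6, and not for Car1 and Slc4a1. The windows of a globin of each chain, of Klf1, and of the targets Alas2 and Kel are shown because GATA1 and KLF1 are known to act on such genes. Each line gives the 220 bases before the start, 5′ to 3′ on the strand of the gene. Capitals mark 2 motifs, searched on both strands: the GATA motif, that is GATA preceded by A or T and followed by A or G, and the CACCC motif bound by KLF factors (CCNCNCCC). Overlapping CACCC matches run together in capitals.
Hba-a1 (chr11:32283452-32283671, plus strand): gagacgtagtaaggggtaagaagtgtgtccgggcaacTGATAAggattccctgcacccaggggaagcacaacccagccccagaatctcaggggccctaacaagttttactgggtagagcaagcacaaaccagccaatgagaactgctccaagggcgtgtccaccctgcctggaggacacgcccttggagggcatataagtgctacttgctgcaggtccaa
Hbb-bs (chr7:103827929-103828148, minus strand): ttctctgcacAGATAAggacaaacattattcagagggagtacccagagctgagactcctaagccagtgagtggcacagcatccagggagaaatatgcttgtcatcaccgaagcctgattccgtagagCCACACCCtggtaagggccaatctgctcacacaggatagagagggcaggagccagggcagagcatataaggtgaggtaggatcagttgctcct
Klf1 (chr8:84901762-84901981, plus strand): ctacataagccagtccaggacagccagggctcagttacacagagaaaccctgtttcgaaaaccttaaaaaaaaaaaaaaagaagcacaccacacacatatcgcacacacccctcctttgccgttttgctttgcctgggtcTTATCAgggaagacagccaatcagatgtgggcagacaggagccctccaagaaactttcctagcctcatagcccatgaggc
Alas2 (chrX:150547197-150547416, plus strand): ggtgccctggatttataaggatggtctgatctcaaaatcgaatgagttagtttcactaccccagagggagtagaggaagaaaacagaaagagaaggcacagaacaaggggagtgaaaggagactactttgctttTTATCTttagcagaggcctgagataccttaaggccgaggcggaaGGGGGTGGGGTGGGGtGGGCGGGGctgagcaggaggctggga
Kel (chr6:41704326-41704545, minus strand): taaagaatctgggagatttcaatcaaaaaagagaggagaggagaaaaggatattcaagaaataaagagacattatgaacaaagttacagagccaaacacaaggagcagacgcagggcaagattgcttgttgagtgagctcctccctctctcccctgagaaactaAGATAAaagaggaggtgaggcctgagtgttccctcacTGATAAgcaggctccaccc
In the 250 bases before the start, the GATA motif was present in 6 of the 8 genes (Hba-a1, Hba-a2, Hbb-bs, Klf1, Alas2 and Kel), and in 26.5% of all 32851 promoters. Hba-a1 and Hba-a2 share the stretch of sequence that holds their motif, so their matches are not independent. The CACCC motif was present in 4 of the 8 (Hbb-bs, Hbb-bt, Alas2 and Gata1), near the 45.9% of all promoters. The motif in Hbb-bs was CCACACCC, between 93 and 86 bases before the start. Kel held GATA motifs 56 and 19 bases before its start. A match describes the letters only.

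Hba-a1 and Hba-a2 are neighbours on chromosome 11, and their coding sequences differ at 1 of 429 bases. Hbb-bs and Hbb-bt lie on chromosome 7 and differ at 1 of 444 coding bases. Reads from such a pair are divided between its members by the authors' quantification, so the split within a pair is uncertain and the sum is firmer.

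In the CD4 post-tx libraries the early factors, the heme enzyme and the globins were all higher in *Cat-Tg*, the contrast on which the genes were picked. Of the 10 genes, 10 passed the thresholds used elsewhere in this report (an edgeR p, adjusted by Benjamini-Hochberg, no higher than 0.05 together with a log2 fold change of 2 or more in size), which 2.3% of the 17227 genes tested passed upward; nothing is read from that count. The fitted log2 fold changes ran from 3.48 for Hbb-bs to 7.26 for Kel.

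Gata1 was measured at 38.2, 26.6 and 32.8 CPM in the 3 *Cat-Tg* CD4 post-tx libraries and at 0.0688, 3.36 and 2.49 CPM in the 3 WT ones. Klf1 was measured at 96.2, 35.4 and 24.9 CPM in *Cat-Tg* and at 2.43, 0 and 0.565 CPM in WT. Both factors were thus at 24.9 CPM or more in every *Cat-Tg* library and at 3.36 CPM or less in every WT library, and the groups did not overlap. In 13.8% of the 17227 genes tested all 3 *Cat-Tg* libraries likewise lay above all 3 WT ones. Since this contrast chose the 10 genes, nothing is read from their lack of overlap in it. In counts the WT values rested on 4, 122 and 110 for Gata1 and 141, 0 and 25 for Klf1, so each WT library that held one factor above 100 counts held the other at 25 counts or fewer. The fitted log2 differences were 3.82 for Gata1 and 5.47 for Klf1.

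Alas2, which makes the first heme precursor in red cells, stood at 159, 210.1 and 108 CPM in *Cat-Tg* and 7.34, 7.70 and 3.64 CPM in WT. Slc4a1, the band 3 anion exchanger of the red cell membrane, stood at 175, 195 and 64.3 CPM and 12.9, 1.29 and 1.60 CPM. Neither gene overlapped between the genotypes. Car1, a carbonic anhydrase of red cells, was at 27.2, 63.9 and 55.3 CPM in *Cat-Tg* and rested on 0, 46 and 1 counts in WT. Kel, the Kell blood group protein, was at 8.85, 20.7 and 8.11 CPM in *Cat-Tg* and rested on 4, 4 and 1 counts in WT. The fitted fold changes of Car1 and Kel, 2 genes with so few WT counts, are for that reason not bounds.

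The 4 globins together were at 26639, 10508 and 4339 CPM in the *Cat-Tg* CD4 post-tx libraries and 637, 1092 and 641 CPM in the WT ones. They made up 2.50, 1.06 and 0.418 percent of all counts in *Cat-Tg*. The spread among the 3 *Cat-Tg* libraries was wide, and replicate 1 held most. In TPM the alpha globin Hba-a2 was the highest of the 10 genes in each of them, at 31489.6, 18620.4 and 7147, and Gata1 was at 21.5, 21.04 and 27.03 TPM. Globins were therefore far above the factors per length of transcript.

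**Figure D1:**
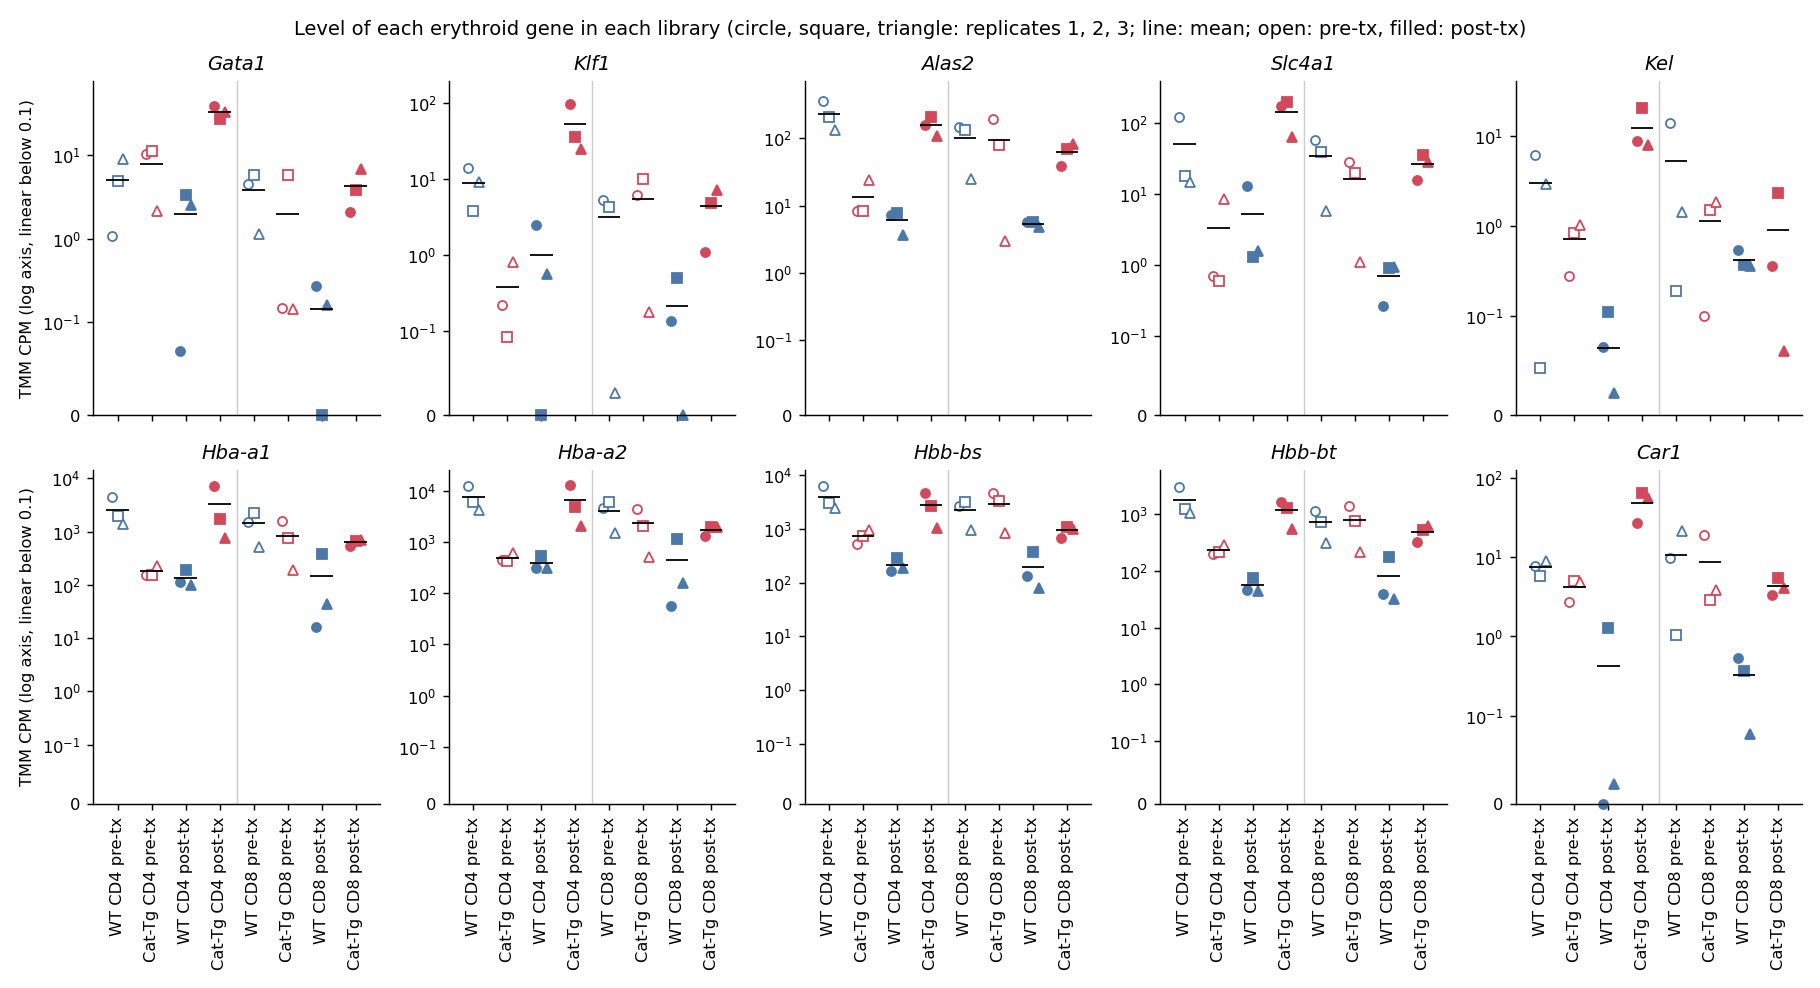
Level of each of the 10 genes in each of the 24 libraries, in TMM CPM on a log axis that is linear below 0.1, by group; circles, squares and triangles are replicates 1, 2 and 3, open symbols are pre-tx, filled symbols post-tx, and lines are means. The *Cat-Tg* CD4 post-tx libraries were the highest for Gata1 and Klf1, whereas the WT CD4 pre-tx libraries reached the same range for the globins and Alas2.

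Read over all 8 groups, globins and early factors gave different orders. By mean the globin sum was highest in WT CD4 pre-tx, as labelled, at 15931 ± 9229.6 (SD, n = 3) CPM, and next in *Cat-Tg* CD4 post-tx, at 13828 ± 11515 (SD, n = 3) CPM. The former held 26428, 12279.5 and 9086 CPM each, so those 2 groups overlapped. *Cat-Tg* CD4 post-tx did not stand apart from all other groups in its globin RNA.

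The globin sum was next in WT CD8 pre-tx (9979, 12157 and 3292 CPM) and in *Cat-Tg* CD8 pre-tx (12032, 6942 and 1733 CPM). Then came *Cat-Tg* CD8 post-tx at 2887, 4249 and 4318 CPM and *Cat-Tg* CD4 pre-tx at 1316, 1545 and 2073 CPM. These neighbours in the order overlapped, except that the *Cat-Tg* CD8 post-tx libraries all lay above the *Cat-Tg* CD4 pre-tx ones. The WT post-tx groups were lowest, with 243, 2049 and 318 CPM in CD8 and 637, 1092 and 641 CPM in CD4, and overlapped each other. Every library held globin RNA, from 0.0198 to 2.58 percent of its counts. Fewer red cells among the sorted cells and less RNA per cell cannot be told apart in such bulk libraries.

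The sum of Gata1 and Klf1 was 134, 61.98 and 57.7 CPM in *Cat-Tg* CD4 post-tx. The next group by mean, the libraries labelled WT CD4 pre-tx, held 15.02, 8.63 and 17.9 CPM. These 2 groups did not overlap, although their globins did. Since the *Cat-Tg* CD4 post-tx libraries were used to pick the genes, nothing is read from this separation. *Cat-Tg* CD8 post-tx (3.16, 8.60 and 13.9 CPM), *Cat-Tg* CD4 pre-tx (10.4, 11.1 and 2.96 CPM), *Cat-Tg* CD8 pre-tx (6.17, 15.5 and 0.321 CPM) and WT CD8 pre-tx (9.82, 9.99 and 1.17 CPM) overlapped one another. WT CD4 post-tx held 2.49, 3.36 and 3.05 CPM, and WT CD8 post-tx was lowest at 0.406, 0.490 and 0.159 CPM, from 6, 8 and 4 counts.

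Set against the globins of the same library, Gata1 and Klf1 gave 5.05, 5.90 and 13.3 counts per 1000 globin counts in *Cat-Tg* CD4 post-tx. The libraries labelled WT CD4 pre-tx gave 0.568, 0.703 and 1.97 counts per 1000 globin counts. The ratio needs no scaling between libraries, and these groups did not overlap in it. The *Cat-Tg* CD4 post-tx libraries were used to pick the genes, so nothing is read from that separation. WT CD4 post-tx gave 3.91, 3.07 and 4.75, all below *Cat-Tg* CD4 post-tx but close to its lowest values. The ratio was also high in *Cat-Tg* CD4 pre-tx replicates 1 and 2 (7.87 and 7.17), where Gata1 made up nearly all of it. In replicate 3 it was 1.43, with Gata1 at 1.04. Klf1 gave only 0.164, 0.0602 and 0.390 counts per 1000 globin counts in replicates 1, 2 and 3, from 7, 2 and 18 counts. In *Cat-Tg* CD4 post-tx Klf1 alone gave 3.61, 3.37 and 5.73. A single WT CD4 post-tx library, replicate 1, gave a Klf1 ratio in that range, 3.80, at 141 Klf1 counts.

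**Figure D2:**
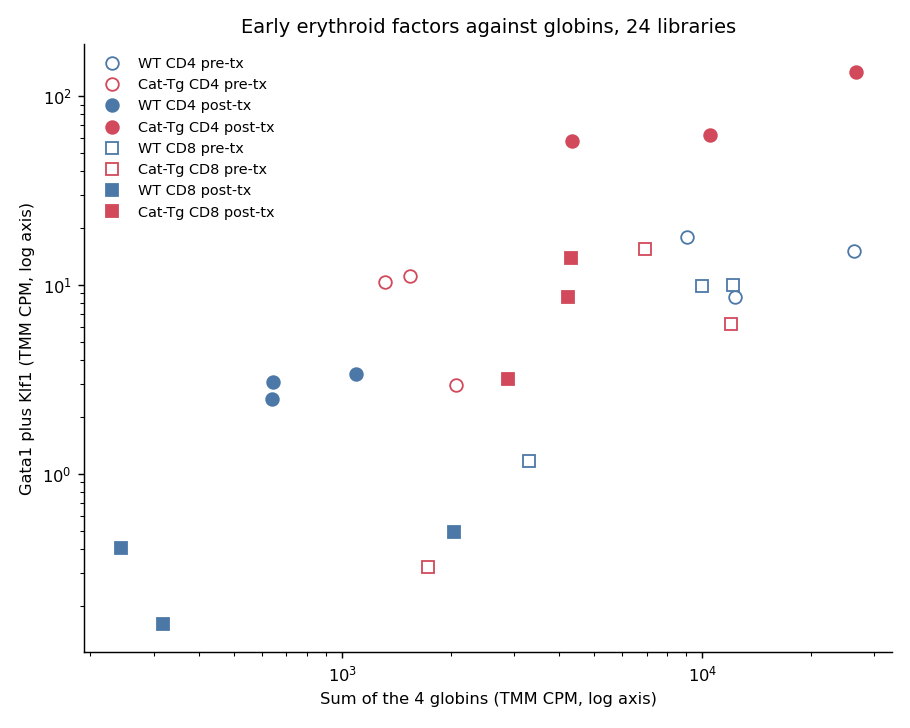
Sum of Gata1 and Klf1 against the sum of the 4 globins, both in TMM CPM on log axes, 1 point for each of the 24 libraries, with circles for CD4, squares for CD8, open symbols for pre-tx and filled symbols for post-tx. At globin sums between 4339 and 26639 CPM the *Cat-Tg* CD4 post-tx libraries held 57.7 to 134 CPM of the factors, and no other library passed 17.9 CPM.

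Over the 24 libraries the levels of the globins followed each other closely (log2 TMM CPM, Pearson r between 0.922 and 0.997 for the 6 pairs). Alas2 (r between 0.882 and 0.920) and Slc4a1 (0.768 to 0.859) followed the globins, then Klf1 (0.734 to 0.790) and Car1 (0.660 to 0.792). Gata1 (0.458 to 0.488) and Kel (0.436 to 0.523) followed them least. Klf1 went more with Slc4a1 (r = 0.900) than with Gata1 (r = 0.501). The libraries share groups, depth and normalization, so these values describe only this set.

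Outside the 10 genes, the protein-coding genes most like the globins in this sense, among 16744, included Klhl26, Gm2a, Fech and Tmcc2, with r between 0.808 and 0.814. Those most like the mean of Gata1 and Klf1 were Tmcc2 (r = 0.865), Pnpla7, Add2, Rhd and Anks1, with the last at 0.791. Fech inserts iron into heme, Add2 is a protein of the membrane skeleton and Rhd is the Rh blood group protein. Tmcc2 was on both lists.

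The CD8 post-tx comparison used libraries that did not choose the genes, though by the study's methods they came from the same recipients as the CD4 libraries. All 10 genes had a positive fitted difference there, with a median log2 fold change of 2.99 against -0.18 over all 15960 genes tested. By edgeR with Benjamini-Hochberg adjustment 1 of the 10, Slc4a1, was called higher, where 0.764% of all genes tested were. At an unadjusted p under 0.05 9 of the 10 passed, all but Kel, where 19.1% of all genes tested did.

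Slc4a1 was at 15.6, 35.1 and 28.6 CPM in *Cat-Tg* CD8 post-tx and 0.271, 0.919 and 0.956 CPM in WT CD8 post-tx. It rose by 5.09 on the log2 scale (SE 1.09, edgeR adjusted p = 0.0366), with no overlap between the groups and WT values from 4, 15 and 24 counts. Counts made from length-scaled TPM gave 2.75 (edgeR adjusted p = 0.187), and over all alternatives the adjusted p ran from 1.15e-05 by DESeq2 to that value. Alas2 stood at 38.9, 69.3 and 82.5 CPM against 5.68, 5.76 and 4.82 CPM, also without overlap, with a log2 difference of 3.47 (SE 0.98, edgeR adjusted p = 0.0803) that missed the threshold. The same held for Car1, at 3.32, 5.49 and 4.05 CPM against 0.541, 0.368 and 0.0797 CPM (edgeR adjusted p = 0.107).

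For the factors the CD8 post-tx levels were low. Gata1 was at 2.08, 3.77 and 6.79 CPM in *Cat-Tg*, from 64, 103 and 211 counts, and rested on 4, 0 and 4 counts in WT. Klf1 was at 1.08, 4.83 and 7.14 CPM in *Cat-Tg* and rested on 2, 8 and 0 counts in WT. Neither overlapped between the genotypes, and neither passed (edgeR adjusted p = 0.123 for Gata1 and 0.196 for Klf1). The share of all genes without overlap in CD8 post-tx was not counted, so nothing is read from the lack of overlap of any gene there. The *Cat-Tg* CD8 post-tx level of the 2 factors together, at most 13.9 CPM, was below the lowest *Cat-Tg* CD4 post-tx level of 57.7 CPM.

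The globin sum in WT CD8 post-tx was 243, 2049 and 318 CPM, with replicate 2 above the other 2 by several-fold. Hbb-bs was at 688, 1095 and 1009.6 CPM in *Cat-Tg* and 131, 369 and 80.4 CPM in WT, a log2 difference of 2.19 (SE 0.64, edgeR adjusted p = 0.0902). Hba-a2 was at 1337, 1942 and 1984 CPM and 56.7, 1131 and 161 CPM (log2 difference 1.88, SE 0.88, edgeR adjusted p = 0.261). Without WT replicate 2 the number of genes called was 5 instead of 1, and without *Cat-Tg* replicate 1 or 2 or WT replicate 1 or 3 it was 0. In a fit of the post-tx libraries alone, which leaves out the libraries labelled WT pre-tx, it was 2. DESeq2 called 7 of the 10 and limma-voom 0. The number called over all genes moved as well. It was 182 in the main fit, 708 by DESeq2, 151 by limma-voom and 30 in the post-tx libraries alone. With 1 library left out it ran from 5 to 444, with 6 without *Cat-Tg* replicate 1 and 5 without *Cat-Tg* replicate 2.

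Before transplant the globins were lower in *Cat-Tg* CD4 libraries than in those labelled WT. In CD4 pre-tx 9 of the 10 fitted differences were negative, and 6 of the 10 genes were called lower in *Cat-Tg* than in the libraries labelled WT (all 4 globins, Klf1 and Alas2), where 2.69% of the 17227 genes tested were called lower. Alas2 was at 8.45, 8.33 and 24.2 CPM in *Cat-Tg* and 356, 206 and 135 CPM in WT, a log2 difference of -3.85 (SE 0.51, edgeR adjusted p = 0.000131).

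Hba-a2 was at 456, 434 and 598 CPM in *Cat-Tg* and 12663, 6036 and 4258 CPM in the libraries labelled WT, a log2 difference of -3.71 (SE 0.59, edgeR adjusted p = 0.000588). Hbb-bs was at 512, 739 and 953 CPM and 6309, 3008 and 2426 CPM, a log2 difference of -2.17 (SE 0.49, edgeR adjusted p = 0.00491). Neither gene overlapped between the groups, and the alpha globin differed by more. In 20.3% of the 17227 genes tested all *Cat-Tg* CD4 pre-tx libraries likewise lay below all those labelled WT. Klf1 differed by -4.34 (SE 1.15, edgeR adjusted p = 0.0145), from 7, 2 and 18 counts in *Cat-Tg* and 244, 79 and 182 counts in WT.

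Gata1 did not go with Klf1 here. It was at 10.1, 10.98 and 2.15 CPM in *Cat-Tg* CD4 pre-tx and 1.09, 4.89 and 8.87 CPM in the libraries labelled WT, with overlap and a log2 difference of 0.87 (SE 0.89, edgeR adjusted p = 0.587). Slc4a1, with a log2 difference of -3.69 (SE 1.26, edgeR adjusted p = 0.0574), Kel and Car1 did not pass. Beside these values, the B cell list was at 7457, 7709 and 6290.4 CPM in the libraries labelled WT and 551, 407 and 579 CPM in *Cat-Tg*. The part of that difference in the erythroid values was not tested.

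In CD8 pre-tx none of the 10 genes was called by edgeR, where 2.23% of all genes tested were called higher and 3.79% lower; no member had an unadjusted p under 0.05, and limma-voom and DESeq2 also called 0. The globin sum was 12032, 6942 and 1733 CPM in *Cat-Tg* and 9979, 12157 and 3292 CPM in the libraries labelled WT, which overlapped. The largest difference in size was that of Kel, at -2.21 (SE 1.46, edgeR adjusted p = 0.403). It rested on WT replicate 1, with Kel at 14.1, 0.186 and 1.45 CPM in the libraries labelled WT and 0.0996, 1.49 and 1.86 CPM in *Cat-Tg*, and was 0.50 without that library. The neutrophil list moved with the globins in *Cat-Tg* CD8 pre-tx, at 3569, 2771 and 357 CPM in replicates 1, 2 and 3, and its part was not tested.

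Whether the CD4 and CD8 differences before transplant differ was tested in a fit of the 12 pre-tx libraries, added after the values were seen. None of the 10 genes passed by edgeR, where 0.333% of the 18308 genes tested were called lower. The log2 difference of differences was -2.85 for Hbb-bt (SE 0.83, edgeR adjusted p = 0.0891) and -2.96 for Hba-a2 (SE 0.91, edgeR adjusted p = 0.108). At an unadjusted p under 0.05, 6 of the 10 passed, where 17.5% of all genes tested did, and limma-voom called 0. By the study's methods both cell types were sorted from each mouse, and this fit took the libraries as independent. A further fit took same-numbered CD4 and CD8 libraries as a block, which stands for the mouse only if the numbers follow the mice. The labels do not say so. With this block, 0 of the 10 were called and 4, the globins, had an unadjusted p under 0.05, where 14.2% of all genes tested did. Without *Cat-Tg* CD8 pre-tx replicate 3, the library with the fewest globin counts in its group, 5 were called. The number called over all genes in that fit was not counted, so nothing is read from the 5.

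**Figure D3:**
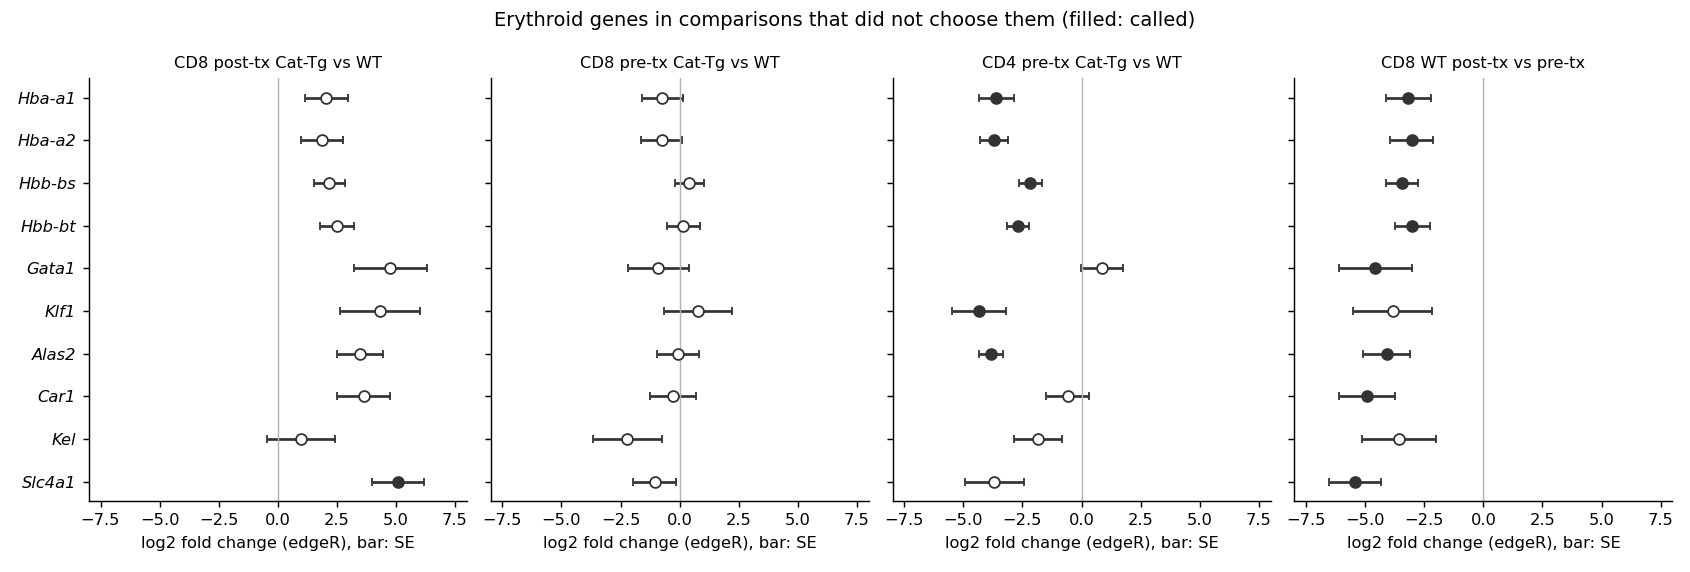
Fitted log2 fold change of each of the 10 genes with its standard error, from edgeR, in the CD8 post-tx, CD8 pre-tx and CD4 pre-tx comparisons of Cat-Tg with WT and in the comparison of WT CD8 post-tx with pre-tx; filled points were called. In CD8 post-tx all 10 lay above 0 with 1 called, and in CD4 pre-tx 6 were called below 0.

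The change from pre-tx to post-tx in CD8 was read within each genotype. Among the libraries labelled WT all 10 fitted differences were negative and 8 of the 10 genes were called lower (all but Klf1 and Kel), where 8.13% of all genes tested were called lower. Slc4a1 went from 57.8, 39.7 and 5.73 CPM to 0.271, 0.919 and 0.956 CPM and fell by 5.44 on the log2 scale (SE 1.11, edgeR adjusted p = 0.00234). Hbb-bs fell by 3.43 (SE 0.68, edgeR adjusted p = 0.00188) and Gata1 fell by 4.57 (SE 1.53, edgeR adjusted p = 0.0407). The B cell list went from 5217, 4828 and 5357 CPM to 42.01, 94.5 and 39.2 CPM between the same libraries, and its part was not tested. Without WT pre-tx replicate 1 or 2 or WT post-tx replicate 3 the number called was 5. Over all genes the number was 2598, and 2189 to 2695 with 1 library left out.

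In *Cat-Tg* CD8 none of the 10 was called by edgeR, where 5.36% of all genes tested were called higher and 4.05% lower. At an unadjusted p under 0.05 only Hbb-bs passed (1 of 10), where 34.2% of all genes tested did, limma-voom and DESeq2 also called 0, and 1 gene was called without *Cat-Tg* pre-tx replicate 3. The log2 difference of Hbb-bs was -1.66 (SE 0.63, edgeR adjusted p = 0.0851). The difference between genotypes in this change was tested as an interaction. Slc4a1 passed, at 6.14 on the log2 scale (SE 1.40, edgeR adjusted p = 0.0111), where 5.83% of all genes tested were called higher. Gata1 (5.66, SE 1.98, edgeR adjusted p = 0.0805) and the other 8 genes did not. Without WT CD8 post-tx replicate 2 the number called was 5 instead of 1. Over all genes the number was 1586, and 981 to 2182 with 1 library left out. Counts made from length-scaled TPM gave 3.87 for Slc4a1 (edgeR adjusted p = 0.106), and no gene was called.

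In CD4 the same change is given without a test. Klf1 went from 0.216, 0.0931 and 0.808 CPM in *Cat-Tg* pre-tx to 96.2, 35.4 and 24.9 CPM post-tx, and Slc4a1 from 0.709, 0.605 and 8.66 CPM to 175, 195 and 64.3 CPM. Gata1 went from 10.1, 10.98 and 2.15 CPM to 38.2, 26.6 and 32.8 CPM. The fitted log2 differences were 6.82 for Klf1, 5.12 for Slc4a1, 1.75 for Gata1 and 1.61 for Hbb-bs, so that the fitted difference of Klf1 was the largest of these 4. In the libraries labelled WT the fitted differences of all 10 were negative, from -5.29 for Kel to -1.20 for Gata1.

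The split between alpha and beta globin differed between groups. Hbb-bs and Hbb-bt made up 53.9, 62.1 and 60.05 percent of the globin counts in *Cat-Tg* CD4 pre-tx and 50.4, 59.4 and 59.8 percent in *Cat-Tg* CD8 pre-tx. In the libraries labelled WT they made up 35.5, 34.7 and 38.2 percent in CD4 pre-tx and 38.4, 32.1 and 38.5 percent in CD8 pre-tx. All 6 *Cat-Tg* pre-tx libraries lay above all 6 WT ones. By the study's methods both cell types were sorted from each mouse, so the 6 libraries of a genotype are not 6 separate mice.

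The mean difference was 22.5 percentage points in CD4 and 20.2 in CD8 (exact two-sided permutation test, p = 0.1 for each, the smallest p that 3 against 3 allows; adjusted over 6 such tests, p = 0.3). In *Cat-Tg* CD4 post-tx the share was 23.8, 37.6 and 36.4 percent, and in *Cat-Tg* CD8 post-tx 35.3, 38.3 and 37.8 percent; all but the first of these lay in the range of the libraries labelled WT pre-tx. In WT CD8 post-tx it was 70.2, 26.6 and 35.5 percent, with replicate 1 at 3598 globin counts. By the study's methods the post-tx spleens belong to BALB/c mice given WT marrow in both genotypes, whereas the pre-tx spleens belong to the donors. In the pre-tx comparison the genotype and the library series cannot be told apart.

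**Figure D4:**
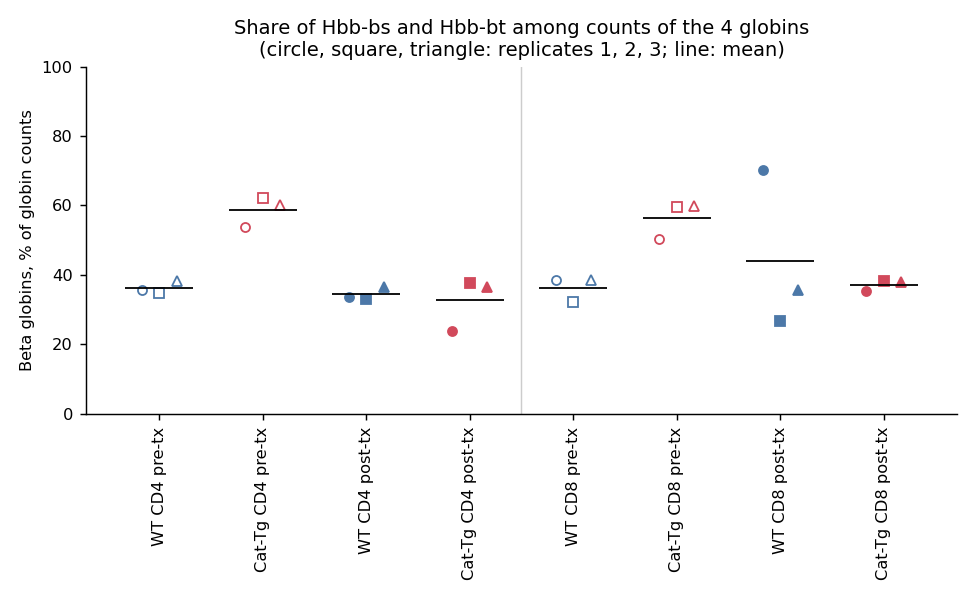
Share of Hbb-bs and Hbb-bt among the counts of the 4 globins, in percent, in each of the 24 libraries by group; circles, squares and triangles are replicates 1, 2 and 3 and lines are means. The 6 Cat-Tg pre-tx libraries lay between 50.4 and 62.1 percent, and the 6 libraries labelled WT pre-tx between 32.1 and 38.5 percent.

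A library of the *Cat-Tg* CD4 post-tx group stood apart in its globin transcripts. In replicate 1, 35.4 percent of the Hba-a1 counts fell on a transcript annotated as retaining an intron, against 0.555 percent in replicate 2 and 0.213 percent in replicate 3. In the other 23 libraries this share was at most 0.596 percent. It was also the shallowest library of the series, at 11135713 counts, and Hba-a2 made up 64.0 percent of its alpha globin counts, against 73.3 and 73.1 percent in replicates 2 and 3. Without it the globin sums of the group are 10508 and 4339 CPM, still above all WT CD4 post-tx libraries, and the sums of Gata1 and Klf1 are 62.0 and 57.7 CPM.

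Other genes of the red cell lineage were read in the same CD4 post-tx contrast from lists of the lineage, as a description, since it chose the 10 genes. Of 17 genes of the red cell membrane 10 were called higher and 0 lower, with a median log2 fold change of 3.09. Besides the 3 genes of each list with the highest mean level, the genes named here were named after their values were seen, as those that were called. Among the membrane genes called were Add2, Ank1, Aqp1, Epb42, Ermap, Rhag, Rhd and Sptb, which include a skeletal protein, its anchor ankyrin and the Rh proteins. Rhd ran from 23.4 to 55.3 CPM in *Cat-Tg* and from 1.12 to 1.65 CPM in WT. Epb41 and Gypc, genes of the membrane skeleton and its glycophorin that T cells also express, were not called, with log2 differences of 0.20 and -0.11. Of 13 further erythroid factors 2 were called higher (Lmo2 and Gfi1b), of 7 receptors and iron genes 2 (Epor and Steap3), and of 12 heme genes 0. The heme list, which holds the enzymes other than Alas2, had a median log2 difference of 0.64, and 11 of the 12 were positive. Urod, a decarboxylase of the pathway, ran from 94.9 to 125 CPM in *Cat-Tg* and from 79.9 to 96.05 CPM in WT. Tfrc, the transferrin receptor, which dividing T cells also carry, ran from 6.92 to 28.1 CPM and from 11.95 to 25.9 CPM and was not called. Of the genes of red cell maturation 3 of the 12 tested were called higher (Car2, Hemgn and Tmcc2). Of the other globins only Hbq1b could be tested, and it was called higher.

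In CD8 post-tx, where the 10 genes were not chosen, 1 of 12 further erythroid factors was called higher (Lmo2), 1 of 17 membrane genes (Epb41), 1 of 12 heme genes (Abcb10) and 1 of 12 maturation genes (Tmcc2); none was called lower. Tmcc2 differed by 4.58 (SE 1.10, edgeR adjusted p = 0.0492) on the log2 scale. Epb41 ran from 109.9 to 183 CPM in *Cat-Tg* and from 9.67 to 30.9 CPM in WT. The lists had more positive than negative differences among membrane (12 of 17) and maturation genes (10 of 12) but not among heme genes (6 of 12) or receptors and iron genes (3 of 7, with 0 called).

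In CD4 pre-tx, where the globins were lower in *Cat-Tg*, 7 of 13 further erythroid factors were called lower (Lmo2, Lyl1, Nfe2, Cbfa2t3, Bcl11a, E2f2 and Gfi1b), 2 of 17 membrane genes (Add2 and Rhd), and none of the 12 heme genes. Bcl11a and Lyl1 are also expressed in B cells, and 7 of 8 B cell genes were called lower in the same comparison. In CD8 pre-tx, where no globin was called, 4 of 12 further erythroid factors (Lmo2, Lyl1, Cbfa2t3 and Bcl11a) and 8 of 8 B cell genes were called lower. The part of B cells in these factor values was not tested.

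Markers of red pulp macrophages moved with the erythroid genes in CD4 post-tx but not in CD4 pre-tx. The 12 genes of that list were summed at 9513, 11952 and 10799.7 CPM in *Cat-Tg* CD4 post-tx and 1147, 1528 and 2425 CPM in WT CD4 post-tx, and 10 of the 12 were called higher in *Cat-Tg*. None of the 12 was at 0 in a library of either group. C1qb, a complement component of macrophages, ran from 1542 to 2013 CPM in *Cat-Tg* and from 163 to 359 CPM in WT. In the same 3 *Cat-Tg* libraries, in the order of that list, the globin sum was 26639, 10508 and 4339 CPM. The part of these cells in the erythroid values was not tested.

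The same list was at 2625, 1651 and 1966 CPM in *Cat-Tg* CD4 pre-tx, where the globin sum was at most 2073 CPM. It was at 1861, 1047 and 1395 CPM in WT CD4 pre-tx, where the globin sum was 26428, 12279.5 and 9086 CPM. Between the CD4 pre-tx groups 3 of its 12 genes were called higher and 0 lower in *Cat-Tg*. It was at 107, 73.03 and 67.2 CPM in *Cat-Tg* CD8 pre-tx, where the globin sum reached 12032 CPM, and at 1531, 611 and 1157 CPM in WT CD8 pre-tx, where it reached 12157 CPM. Between those groups 10 of its 12 genes were called lower in *Cat-Tg*, with a median log2 difference of -3.73, while no erythroid gene of the 10 was called. In CD8 post-tx it was at 226, 365 and 362 CPM in *Cat-Tg* and 80.99, 202 and 151 CPM in WT, and none of its genes was called. Its gene Marco was at 0 in a *Cat-Tg* CD8 post-tx library. The neutrophil list was at 343, 577 and 837 CPM and 135, 137 and 72.7 CPM in those groups, with all 12 genes positive and none called. In CD4 post-tx it was at 1938, 2097 and 1019 CPM in *Cat-Tg* and 1823, 739 and 951 CPM in WT, with none called. The megakaryocyte list, a lineage that also uses Gata1, had 2 of 10 tested genes called higher in CD4 post-tx (Pf4 and Gp1bb). Of its 10 tested genes 9 were positive there, with a median log2 fold change of 2.13. The mast cell, basophil and eosinophil list had 1 called higher and 1 lower of 10, with 3 positive and a median of -0.904. The stem and progenitor list had 1 of 6 called lower (Cd34). T cell genes were at 5911, 4719.8 and 5581 CPM in *Cat-Tg* and 7109, 5013 and 6531 CPM in WT CD4 post-tx, with none of 11 called, and 1 of 8 B cell genes (Cd79a) was called higher.

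**Figure D5:**
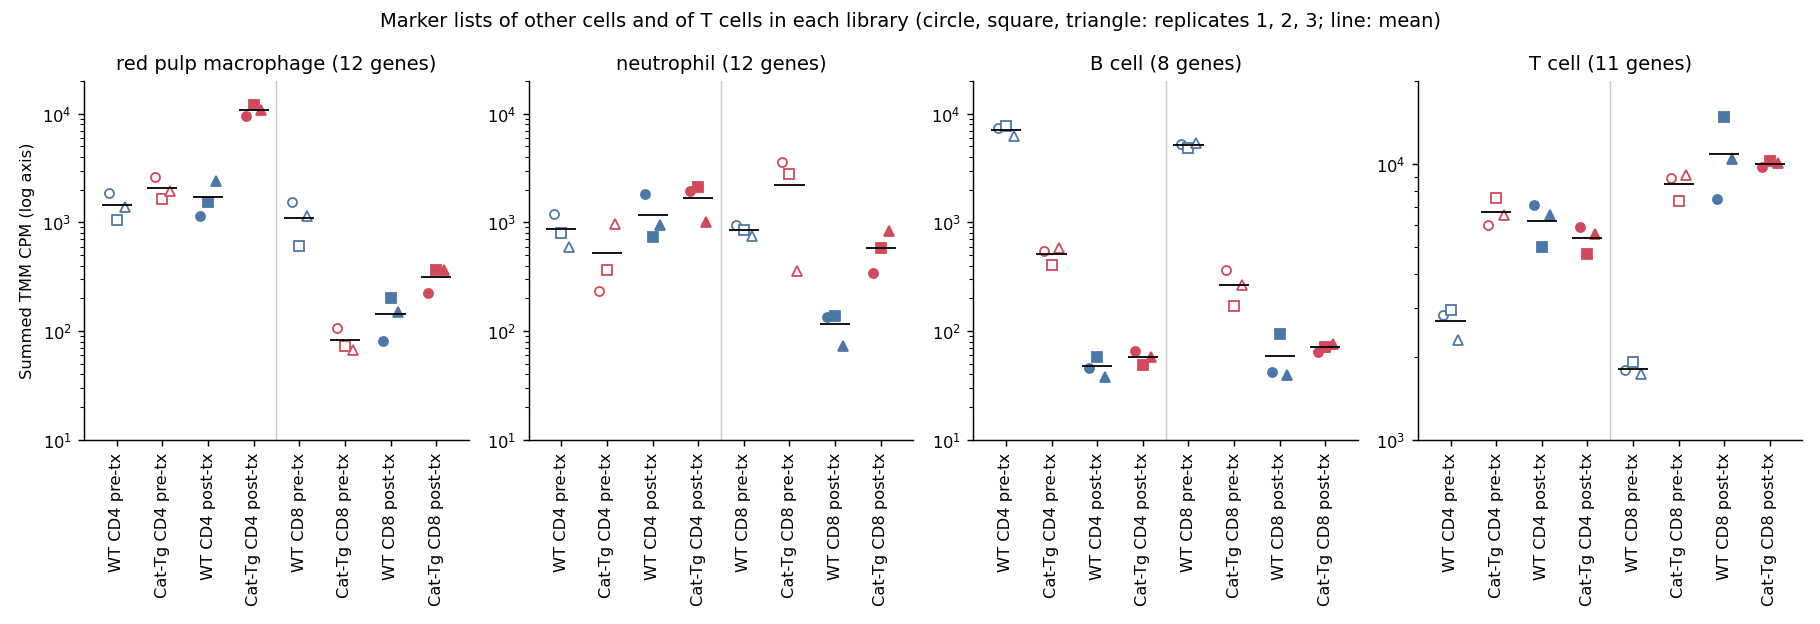
Summed TMM CPM, on log axes, of the marker lists of red pulp macrophages, neutrophils, B cells and T cells in each of the 24 libraries by group; symbols are replicates and lines are means. The macrophage list was highest in Cat-Tg CD4 post-tx, at 9513 to 11952 CPM, and the B cell list was highest in the libraries labelled WT pre-tx, at 4828 to 7709 CPM.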

How the data were processed

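RNA was prepared with a SMART-Seq HT kit and Nextera XT libraries. The authors quantified reads per transcript with Kallisto 0.46.2, and the deposited files hold, per transcript, the estimated count and the TPM. The submitters' processing notes name build mm9 and limma. Transcripts were assigned to gene symbols by GENCODE M21 (116374 of 117497 matched, with at least 99.57% of the counts), estimated counts were summed by gene and rounded, and scaled by TMM. The members and lists were chosen with earlier results of these data known.

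For each cell type the 12 libraries were fitted together with the robust quasi-likelihood F test of edgeR 4.0.16 (R 4.3.3), on genes above 1 CPM in at least 3 libraries. A gene was called where its Benjamini-Hochberg adjusted p was no higher than 0.05 and its log2 fold change was 2 or more in size. SE is the size of the log2 fold change over the root of F. The procedure was tested on simulated counts. Log2 levels used a prior count of 2. The libraries held 11135713 to 50519825 counts, so precision is lowest below about 3 counts. The text names all 10 genes, the 3 highest genes of each list, and the 5 genes most like the globins and the 5 most like the factors. Some of these and of the called list genes are not reported here. limma-voom (limma 3.58.1), DESeq2 1.42.0, other filters, units, scalings and samples were alternatives. The test of CD4 against CD8 before transplant was chosen after seeing the data.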

Additional observations from a re-analysis of the deposited data

Results flagged for a closer look

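In CD8, Slc4a1 differed between genotypes in its change from pre-tx to post-tx by 6.14 on the log2 scale (edgeR interaction, Benjamini-Hochberg adjusted p = 0.0111). Counts made from length-scaled TPM gave 3.87 (edgeR adjusted p = 0.106), which was not called. In TMM CPM 3 of 3 WT post-tx libraries lay below all 6 *Cat-Tg* libraries and below the 3 libraries labelled WT pre-tx. The margin was narrow, with WT post-tx replicate 3 at 0.956 CPM and *Cat-Tg* pre-tx replicate 3 at 1.11 CPM. In TPM those 2 libraries were in the other order, at 1.49 and 0.454.

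In CD4, all 3 *Cat-Tg* libraries lay below all 3 libraries labelled WT before transplant and above all 3 WT libraries after it for 8 of the 10 genes. Of the 17227 genes tested 5.47% did both. That share is no baseline for the 10 genes, because they were picked on the post-tx part, which all 10 met. The pre-tx part alone was met by 8 of the 10 and by 20.3% of all genes tested. The post-tx difference minus the pre-tx difference, on the log2 scale, was 7.99 for Hba-a1, 7.59 for Hba-a2, 5.66 for Hbb-bs, 6.85 for Hbb-bt, 9.81 for Klf1, 8.28 for Alas2, 7.19 for Car1 and 8.23 for Slc4a1. This difference was not tested, because the post-tx libraries chose the genes.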

How the results depend on the processing

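The counts of the 10 genes called moved most in CD8. After transplant 1 gene was called by edgeR, against 0 by limma-voom, 7 by DESeq2, 4 with no filter, 0 from length-scaled TPM, 2 with only the libraries compared, and 0 to 5 when 1 library was left out (5 without WT replicate 2, and 0 without *Cat-Tg* replicate 1 or 2 or WT replicate 1 or 3). For WT post-tx against pre-tx 8 genes were called, against 4 by limma-voom and 5 to 8 with 1 library left out (5 without WT pre-tx replicate 1 or 2 or WT post-tx replicate 3). For the CD8 interaction 1 was called, against 4 by limma-voom, 4 by DESeq2, 3 with no filter, 0 from length-scaled TPM, and 1 to 5 with 1 library left out (5 without WT post-tx replicate 2). For *Cat-Tg* CD8 post-tx against pre-tx the range was 0 to 1 (1 without *Cat-Tg* pre-tx replicate 3), and for CD4 pre-tx 4 to 8. In CD8 pre-tx no alternative called a gene. In the test added between CD4 and CD8 before transplant the range with 1 library left out was 0 to 5. Calls over all genes were not counted in those fits. The cause of these moves was not tested.

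With the replicate block 6 genes were called in the CD8 interaction, 1 in CD8 post-tx, 7 in WT CD8 and 6 in CD4 pre-tx. Over all genes the block called 1108 in the CD8 interaction, 25 in CD8 post-tx and 2337 in WT CD8. Without the block those numbers were 1586, 182 and 2598. This block pairs libraries of different mice within a cell type by number alone. The correlations of their deviations ran from -0.254 to 0.197. In CD8 pre-tx all 3 were positive, at 0.126, 0.197 and 0.0634, and in each other comparison the signs were mixed. Those of same-numbered CD4 and CD8 libraries ran from -0.287 to 0.17. Such libraries share a mouse only if the numbers follow the mice, which the labels do not say. A block of same-numbered CD4 and CD8 libraries before transplant called 0 genes, as without it.

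Some differences turned sign, none of them called. Kel in CD8 post-tx was -0.20 by limma-voom, -0.34 from length-scaled TPM and -0.17 with the block, and -1.05 to 1.66 with 1 library left out. From length-scaled TPM Kel was -0.15 in the interaction and 0.52 in CD4 pre-tx. In CD8 pre-tx Hbb-bt was -0.030 by limma-voom and -0.014 with the block, and Car1 0.14 with the block. For *Cat-Tg* CD8 post-tx against pre-tx limma-voom gave 0.087 for Hba-a1, 0.10 for Hba-a2, 0.72 for Klf1 and 0.87 for Alas2, and the block 0.022, 0.045 and 0.30 for Hba-a1, Hba-a2 and Alas2. With 1 library left out, the ranges in that comparison were -0.89 to 0.33 (Hba-a1), -0.91 to 0.39 (Hba-a2), -1.15 to 0.51 (Alas2), -1.44 to 0.31 (Car1), -0.95 to 0.50 (Klf1) and -2.39 to 0.13 (Kel). In CD8 pre-tx they were -0.14 to 0.77 (Hbb-bs), -0.55 to 0.68 (Hbb-bt), -0.12 to 1.42 (Klf1), -1.69 to 0.66 (Car1), -1.26 to 0.40 (Alas2) and -2.77 to 0.50 (Kel, 0.50 without WT replicate 1).

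Over all genes, 182 were called in CD8 post-tx, against 708 by DESeq2, 415 with no filter, 30 with only the libraries compared, 25 with the block and 5 to 444 with 1 library left out. DESeq2 called 1474 against 961 in CD8 pre-tx, 2694 against 1503 in *Cat-Tg* CD8 and 2462 against 1586 in the interaction. With 1 library left out the number ran from 826 to 2062 in *Cat-Tg* CD8 and from 2189 to 2695 in WT CD8. It ran from 981 to 2182 in the interaction and from 855 to 1457 in CD4 pre-tx. Low counts limit Gata1, Klf1, Car1 and Kel in WT post-tx, and the libraries labelled WT pre-tx limit each comparison before transplant.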
